A study of Homo sapiens with 6 samples.

Results

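The BCL2 family decides whether the outer mitochondrial membrane stays intact during apoptosis, and 10 of its genes were followed in the human 786-O line of clear cell renal carcinoma after knockdown of the RNA-binding protein IGF2BP2. The members were BMF, BOK, BCL2, BCL2L1, BCL2L11, MCL1, BAX, BAK1, BID and BAD, which were found by gene symbol as 10 of the 20020 genes in the table. They were selected on these data, because BMF was lower and BOK was higher in the knockdown than in the control. Their values and calls against the control are therefore given as a description, and a test is read only from the comparison between the knockdown sets, which the choice did not use. All 10 passed the filter on low counts that left 13346 genes.

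Polyadenylated RNA was sequenced from 3 samples labelled shIGF2BP2, which carry a short hairpin RNA against IGF2BP2, and from 3 control samples labelled puro, a term that the labels do not spell out. All samples were the same cell line, and the labels do not say whether the knockdown cells were a clone or a pool. The count table held 3 puro columns and 6 shIGF2BP2 columns, and the shIGF2BP2 columns carry 2 numbers each. The second of these was taken as the replicate number, and the first, which no label explains, splits the columns into set 3 and set 2 with 3 columns each. On this reading, each shIGF2BP2 sample has a column in both sets. Deviations of same-numbered columns from their set means correlated at only -0.094, 0.004 and -0.072 between the sets. Both sets are compared with the same 3 puro columns. The labels do not say whether the sets are different hairpins. If they are, the 6 columns are separate samples, and a difference between hairpins cannot be told apart from the set difference reported here. Nothing in the labels says whether each sample was its own culture. The p-values therefore reflect the spread among these columns alone, and that spread may be technical.

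Family members work by binding one another. The anti-apoptotic proteins MCL1, Bcl-xL (from BCL2L1) and BCL2 hold the pore-forming effectors BAX and BAK in check, and the BH3-only proteins, among them BMF, BIM (from BCL2L11), BID and BAD, bind the anti-apoptotic proteins or the effectors and so promote death. BOK is a further effector, whose protein is known to be kept low by degradation from the endoplasmic reticulum. IGF2BP2 is a reader of N6-methyladenosine in RNA and is known to stabilise many of the transcripts that it binds.

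What joins the members in sequence is the BH3 motif, the short helix by which they dock to each other. The stretch coding for its core is shown for each member because the class of a member, described below, rests on how this helix is used. Each is 30 bases of the coding sequence, 5′ to 3′ on the gene's strand, from the longest APPRIS principal transcript of GENCODE v29 on GRCh38, whose exons are numbered here, with the codons for the conserved leucine and for the small residue and aspartate in capitals.
MCL1: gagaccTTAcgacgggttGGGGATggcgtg
BCL2L1: caagcgCTGagggaggcaGGCGACgagttt
BCL2: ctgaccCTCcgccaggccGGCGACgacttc
BAX: gagtgtCTCaagcgcatcGGGGACgaactg
BAK1: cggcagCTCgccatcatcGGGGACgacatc
BOK: gcggtgCTGctgcgcctgGGCGATgagctg
BMF: cgaaagCTTcagtgcattGCAGACcagttc
BCL2L11: caagagTTGcggcgtattGGAGACgagttt
BID: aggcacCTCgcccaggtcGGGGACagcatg
BAD: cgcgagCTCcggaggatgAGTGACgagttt

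The pattern searched was a leucine codon, 2 codons of any kind, a codon for isoleucine, methionine, valine, leucine or alanine, a codon for glycine, alanine or serine, and an aspartate codon. It occurred 1 time in each member and in 15.0% of the 12874 coding sequences searched, or 6.73% of the 3643 whose length lay within the members' range of 417 to 1053 bases. Over the 18 bases of the core, pairs of members shared between 7 and 14 identical bases. BMF and BAD were the members whose small residue was not coded by a glycine codon: BMF has an alanine codon and BAD a serine codon. The BMF stretch lies at chr15:40104201-40104230 on the minus strand in exon 4, the MCL1 stretch at chr1:150578871-150578900 on the minus strand in exon 1, and the BCL2L11 stretch at chr2:111150097-111150126 on the plus strand in exon 4. That of BOK runs across the junction of exons 2 and 3, between positions 241559685 and 241562358 of chromosome 2 on the plus strand.

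Column totals ranged from 33821216 to 47470019 counts. IGF2BP2 itself stood at 34.5, 31.1 and 35.4 CPM (counts per total of the column, after TMM scaling) in set 3, at 25.2, 23.5 and 23.1 CPM in set 2, and at 74.8, 76.5 and 79.0 CPM in puro, so the targeted transcript was lower in every knockdown column. Its log2 fold change was -1.19 (SE 0.074) in set 3 and -1.68 (SE 0.076) in set 2. The 13 mitochondrially encoded mRNAs took 2.65 to 2.80% of counts in set 3, 3.13 to 3.29% in set 2 and 2.26 to 2.40% in puro, and the part of this in the results below was not tested. VIM, KRT8, KRT18 and PAX8, markers of renal carcinoma cells, were present in all columns, while PAX8 averaged 29.7 FPKM (fragments per kilobase of transcript and per unit of depth) in set 3, 63.4 in set 2 and 68.1 in puro. CA9, a usual marker of clear cell carcinoma, was at 0.191 to 0.497 FPKM. The leukocyte markers PTPRC and CD3E and the endothelial markers PECAM1, VWF and CDH5 stayed at or below 0.0994 FPKM in every column, and CD68, also made by many non-myeloid cells, averaged 13.3 FPKM in set 3, 25.3 in set 2 and 13.3 in puro.

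**Figure D1:**
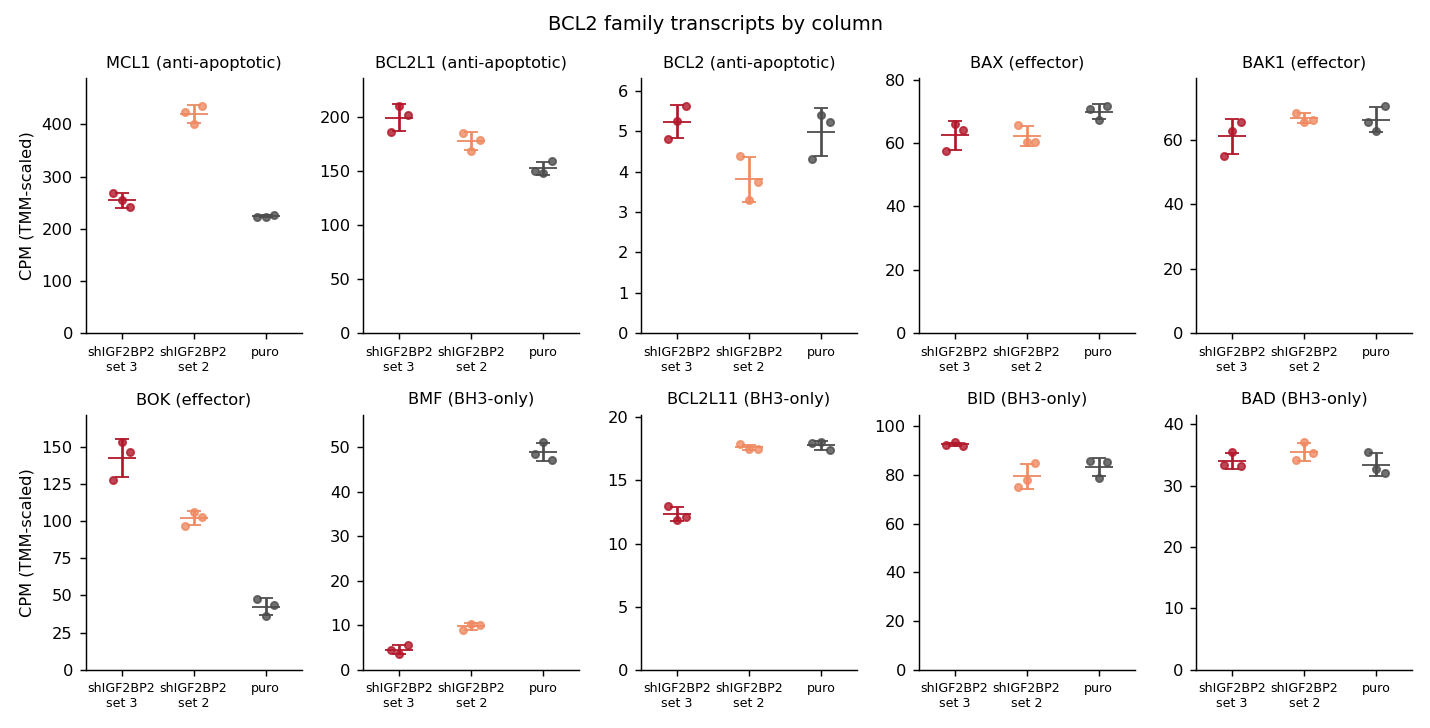
Level of each of the 10 members in CPM (TMM-scaled, linear axis from 0) in the 3 columns of shIGF2BP2 set 3, of set 2 and of puro. Points are columns, and bars show the mean and SD over 3 columns. BMF is lowest in set 3 and highest in puro, BOK has the opposite order, and MCL1 stands apart in set 2.

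BMF, a BH3-only protein tied to detachment from the matrix and to the cytoskeleton, was the member furthest below puro. It was at 4.53, 3.45 and 5.63 CPM in set 3, at 8.88, 10.3 and 10.1 CPM in set 2, and at 48.6, 51.1 and 47.1 CPM in puro. No column of one kind overlapped another, and the order set 3, set 2, puro held for every column. These levels rested on 138 to 261 counts per column in set 3, on 364 to 482 in set 2 and on 1592 to 1773 in puro. BMF in set 3 was at 9.33% of its puro level (log2 fold change -3.42, SE 0.12), and in set 2 at 19.95% (log2 -2.33, SE 0.11). In bulk RNA, fewer cells with the transcript and less of it per cell cannot be told apart. The gene spans chr15:40087890-40108892 on the minus strand of GRCh38.

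Between the sets, BMF was 1.10 lower on the log2 scale in set 3 than in set 2 (SE 0.13; edgeR quasi-likelihood adjusted p = 2.52e-08). Set 3 thus held 46.8% of the set 2 level. IGF2BP2 itself was higher in set 3 than in set 2, by 0.49 on the log2 scale, and its part in the BMF difference was not tested. An antisense gene, BMF-AS1, overlaps BMF, and its reads could not be told apart from those of BMF, because the strand setting of the counting is unknown here.

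BCL2L11, which encodes BIM, a BH3-only activator with a broad set of anti-apoptotic partners, separated the sets. Its levels were 13.0, 11.9 and 12.1 CPM in set 3, 17.9, 17.5 and 17.5 CPM in set 2, and 18.0, 18.0 and 17.4 CPM in puro. All 3 set 3 columns lay below every other column, whereas set 2 and puro overlapped. The log2 fold change was -0.53 (SE 0.094) in set 3 against puro and -0.01 (SE 0.092) in set 2 against puro. Set 3 was lower than set 2 by 0.52 (SE 0.093; edgeR adjusted p = 2.7e-05). MIR4435-2HG overlaps this gene on the other strand, with the same limit on the reads.

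BID, the BH3-only protein that caspase-8 cleaves to link death receptors to mitochondria, was at 92.4, 93.4 and 91.9 CPM in set 3, at 75.2, 78.1 and 84.9 CPM in set 2, and at 85.5, 78.9 and 85.3 CPM in puro. The set 3 columns lay above all others, and set 2 and puro overlapped. Set 3 exceeded set 2 by 0.22 on the log2 scale (SE 0.068; edgeR adjusted p = 0.00656), a call that was lost without shIGF2BP2 replicate 2 (adjusted p = 0.0806). BAD, whose activity is set by phosphorylation, was at 34.0 ± 1.27 CPM in set 3, 35.5 ± 1.47 in set 2 and 33.4 ± 1.86 in puro (SD, n = 3), and all 3 kinds of column overlapped. Its set difference was -0.06 (SE 0.076; edgeR adjusted p = 0.519).

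BOK, the effector that does not need BH3-only activation in textbook accounts, had the opposite order from BMF. It stood at 128, 153 and 146 CPM in set 3, at 96.7, 106 and 103 CPM in set 2, and at 47.3, 36.3 and 43.8 CPM in puro. The 3 kinds of column did not overlap, and set 3 was highest. BOK in set 3 was 3.35-fold above puro (log2 1.75, SE 0.086), and in set 2 it was 2.40-fold above puro (log2 1.26, SE 0.085). Set 3 exceeded set 2 by 0.48 on the log2 scale (SE 0.082; edgeR adjusted p = 1.25e-05). The gene lies at chr2:241551424-241574138 on the plus strand, where the antisense gene BOK-AS1 overlaps it.

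BAX and BAK1, which encode the main pore-forming effectors, differed little between columns. BAX averaged 62.5 ± 4.58 CPM in set 3, 62.1 ± 3.16 in set 2 and 69.9 ± 2.41 in puro (SD, n = 3), and both sets lay below puro without overlap. BAX in set 3 differed from set 2 by 0.01 on the log2 scale (SE 0.072; edgeR adjusted p = 0.913), and the sign of this small value depended on the scaling. BAK1 averaged 61.1 ± 5.38 CPM in set 3, 66.7 ± 1.54 in set 2 and 66.2 ± 3.98 in puro. Its set difference was -0.13 (SE 0.074; edgeR adjusted p = 0.147), and the highest set 3 column and the lowest set 2 column were both at 65.5 CPM.

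MCL1, a short-lived anti-apoptotic protein, was the member in which set 2 stood apart. It was at 269, 254 and 241 CPM in set 3, at 424, 401 and 436 CPM in set 2, and at 223, 222 and 227 CPM in puro. Set 3 lay just above puro and set 2 lay far above both, with no overlap. In set 3 its log2 fold change against puro was 0.19 (SE 0.063), and in set 2 it was 0.91 (SE 0.063), a 1.88-fold difference. MCL1 was lower in set 3 than in set 2 by 0.72 (SE 0.063; edgeR adjusted p = 1.35e-10). Long and short MCL1 isoforms, which have opposite activities, are summed in these gene counts. ADAMTSL4-AS1 overlaps MCL1 on the same strand, and its part in these counts is not known. Every other member except BAX also overlaps an annotated gene, among them BAD with the protein-coding GPR137 on the opposite strand.

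BCL2L1, from which Bcl-xL is made, was at 186, 210 and 201 CPM in set 3, at 185, 168 and 179 CPM in set 2, and at 150, 148 and 159 CPM in puro. Both sets lay above puro in every column, by 0.39 (SE 0.066) in set 3 and by 0.22 (SE 0.066) in set 2 on the log2 scale. Set 3 exceeded set 2 by 0.17 (SE 0.066; edgeR adjusted p = 0.0297), but this call was lost without shIGF2BP2 replicate 2 (adjusted p = 0.417) and without replicate 3 (adjusted p = 0.109). With the replicate number as a block it was also lost (edgeR adjusted p = 0.0703). The splice forms Bcl-xL and Bcl-xS cannot be separated at the gene level.

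BCL2 had few reads in this line. It was at 4.82, 5.26 and 5.63 CPM in set 3, at 4.39, 3.29 and 3.74 CPM in set 2, and at 4.30, 5.41 and 5.23 CPM in puro. Every set 3 column lay above every set 2 column, and puro overlapped both. BCL2 in set 3 was 0.46 above set 2 on the log2 scale (SE 0.16; edgeR adjusted p = 0.0147), which was lost without shIGF2BP2 replicate 2 (adjusted p = 0.137) or replicate 3 (adjusted p = 0.104).

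**Figure D2:**
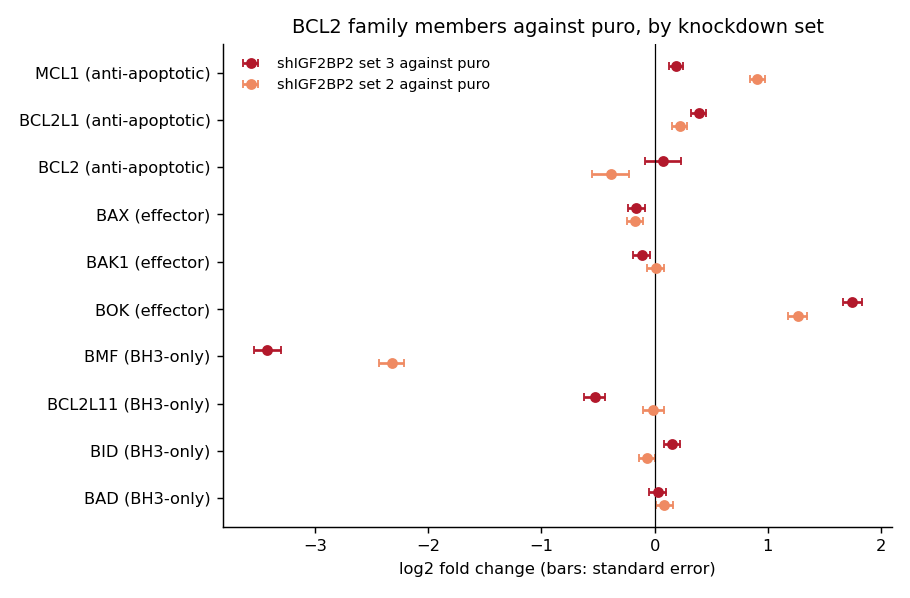
Log2 fold change of each member against puro from the edgeR fit of all 9 columns, with its standard error, for set 3 and for set 2. BMF lies at -3.42 in set 3 and -2.33 in set 2, BOK at 1.75 in set 3 and 1.26 in set 2, while MCL1 lies at 0.19 in set 3 and 0.91 in set 2, and BCL2L11 at -0.53 in set 3 and -0.01 in set 2. The sets share the 3 puro columns.

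The number of members called was set beside the share of all genes called. A gene was called where its adjusted p was under 0.05. In set 3 against puro, 3 of the 10 members were called higher (MCL1, BCL2L1 and BOK), where 28.0% of all 13346 genes were, and 2 were called lower (BMF and BCL2L11), where 27.6% of all genes were. In set 2 against puro, 3 were called higher (the same genes: MCL1, BCL2L1 and BOK), against 30.0% of all genes, and 3 lower (BCL2, BAX and BMF), against 29.9%. With the same-numbered columns of the sets summed, 3 were called higher than puro (MCL1, BCL2L1 and BOK), against 28.8% of 13518 genes. In that fit 3 were called lower (BAX, BMF and BCL2L11), against 29.2%. The summed log2 fold changes were -2.78 for BMF, 1.51 for BOK, 0.58 for MCL1 and 0.29 for BCL2L1. The choice of members used all of these contrasts with puro, and nothing is read from these counts. The call of MCL1 in set 3 against puro was lost without shIGF2BP2 replicate 2.

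In set 3 against set 2, which the choice did not use, 4 members were called higher (BCL2L1, BCL2, BOK and BID), against 29.8% of all genes, and 3 lower (MCL1, BMF and BCL2L11), against 30.8%. These shares are near the background. Without shIGF2BP2 replicate 2, the number called in this comparison was 4 in place of 7, with BCL2L1, BCL2 and BID lost. Over all genes the number called was 6676 in place of 8097. The median absolute log2 difference between the sets was 0.34 over the members and 0.37 over all genes.

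Levels of different genes were compared per length, in the deposited FPKM values. These carry no TMM factor, which was 0.958 to 0.977 in set 3, 1.045 to 1.057 in set 2 and 0.979 to 0.990 in puro. Small differences between the kinds of column in FPKM therefore depend on the scaling. Among the 3 anti-apoptotic members, MCL1 and BCL2L1 carried nearly all of the transcript. They were at 53.7 and 48.5 FPKM in set 3, 96.6 and 47.1 FPKM in set 2, and 48.1 and 37.8 FPKM in puro. BCL2 was at 0.424 FPKM in set 3, 0.336 in set 2 and 0.411 in puro. This is 0.413% of the sum of these 3 members in set 3, 0.233% in set 2 and 0.476% in puro. Outside the members, the anti-apoptotic gene BCL2L2 averaged 6.63 FPKM in set 3, 16.2 in set 2 and 8.23 in puro. BCL2A1, also anti-apoptotic, averaged 3.10 FPKM in set 3, 3.95 in set 2 and 4.75 in puro. Among the effectors, BOK made up 43.0 ± 0.59% of the summed FPKM in set 3, 34.4 ± 1.91% in set 2 and 16.9 ± 1.53% in puro (SD, n = 3). BOK was the effector with the highest FPKM in set 3, while in set 2 and in puro BAX was.

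The BH3-only sum, taken over the 4 BH3-only members, was carried by BID and BAD. BID averaged 32.7 FPKM in set 3, 30.6 in set 2 and 30.0 in puro, and BAD averaged 24.8 FPKM in set 3, 28.2 in set 2 and 24.8 in puro. BMF gave 1.48 ± 0.37% of the BH3-only sum in set 3, 3.27 ± 0.15% in set 2 and 14.5 ± 0.89% in puro. BCL2L11 was at 1.95 FPKM in set 3, 3.04 in set 2 and 2.87 in puro. PMAIP1, a BH3-only gene outside the members and so not in this sum, was at a level like that of BID. It averaged 43.5 FPKM in set 3, 32.9 in set 2 and 29.3 in puro. The BH3-only genes BBC3 and BIK, also outside the members, averaged at most 1.7 FPKM in any kind of column.

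By class, the anti-apoptotic members summed to 103 ± 1.91 FPKM in set 3, 144 ± 5.58 in set 2 and 86.3 ± 1.62 in puro (SD, n = 3). The effectors summed to 122 ± 10.7 FPKM in set 3, 119 ± 2.00 in set 2 and 94.1 ± 4.55 in puro. The BH3-only members summed to 60.4 ± 0.85 FPKM in set 3, 63.9 ± 2.25 in set 2 and 67.5 ± 1.97 in puro. Because FPKM carries no TMM factor, the order of set 3 and set 2 in this last sum is not settled. The ratio of the BH3-only sum to the anti-apoptotic sum was 0.588 in set 3, 0.445 in set 2 and 0.782 in puro, with no overlap between the 3 kinds of column. These sums describe transcripts only, and they contain BMF and BOK, on which the members were chosen. They cover the 10 members and leave out PMAIP1, BCL2L2 and the other relatives. The ratio is therefore not that of the whole family, which was not computed and could be ordered otherwise.

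**Figure D3:**
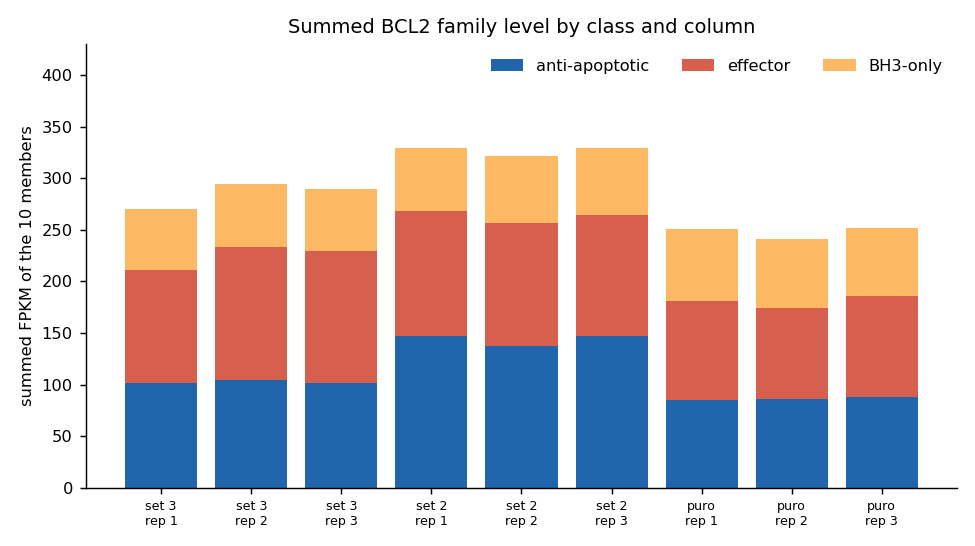
Summed FPKM of the 10 members in each column, stacked by class (3 anti-apoptotic genes, 3 effectors, 4 BH3-only genes), for the 3 columns of set 3, of set 2 and of puro. The anti-apoptotic part is largest in set 2, at 144 FPKM on average, and the BH3-only part differs least between the kinds of column.

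IGF2BP proteins are known to favour the letters TGGAC, which hold the consensus of m6A. The same transcript of each member was searched on the sense strand for TGGAC. The motif is common, with a median of 1.16 sites per kilobase over 12874 transcripts and at least 1 site in 94.2% of them. BMF held 6 sites in 4687 bases, 4 of them in the 3′ UTR, and 44.0% of transcripts within 10% of its length held at least as many. MCL1 held 5 sites (47.4% of similar transcripts held as many or more), BOK held 7 (12.7%) and BCL2L11 held 1 (86.7%). BAX had the densest sites, 7 in 793 bases, which 1.14% of similar transcripts reached. A match in letters is not a binding site, and no binding was measured in these samples.

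The site closest to the stop codon is shown for the 3 members that differed most from puro with the columns summed. Each is given as 21 bases with the motif in capitals. In BMF it lies 343 bases after the stop codon at chr15:40091431-40091451 on the minus strand, in MCL1 67 bases after it at chr1:150577295-150577315 on the minus strand, and in BOK in the coding part, across an exon junction of chromosome 2.
BMF: ctgggaagTGGACtgtggttt
MCL1: tatgcagtTGGACtccaagct
BOK: gcggcggaTGGACtgatgtcc

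The genes whose pattern was most like that of BMF or BOK were found by the root mean square difference of log2 CPM, each relative to its puro mean, over the 9 columns and 13345 genes. SLC16A12, a creatine transporter, was closest to BMF with a difference of 0.26, followed by EGR1, an immediate early transcription factor, at 0.35 and KMO, an enzyme of tryptophan breakdown, at 0.35. SLC16A12 averaged 0.638 CPM in set 3, 1.80 in set 2 and 7.97 in puro, so these neighbours were lowly expressed. MAP1S, a microtubule-associated protein, was closest to BOK with a difference of 0.13, followed by STRADB at 0.16 and DIPK1B at 0.17. MAP1S averaged 51.7 CPM in set 3, 36.9 in set 2 and 16.7 in puro.

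Of 13 other relatives of the family, 10 were tested, and BCL2L10, HRK and BCL2L14 were too low. In set 3 against puro 2 were higher and 5 lower, with a median log2 fold change of -0.26, and in set 2 against puro 2 were higher and 3 lower, with a median of -0.25. Of all genes, 28.0% were higher and 27.6% lower in set 3, and 30.0% were higher and 29.9% lower in set 2. Without shIGF2BP2 replicate 3, 4 relatives were called in set 3 against puro, where 6915 of all genes were called in place of 7425. The median over all genes was 0.004 in set 3 and 0.006 in set 2. Most genes named from this and the next lists were picked by their calls against puro or by their set difference. The adjusted p values of such genes are therefore a description. BCL2L15 had the largest fall among the tested relatives in both sets, at 0.600 ± 0.10 CPM in set 3, 3.98 ± 0.67 in set 2 and 11.9 ± 1.57 in puro (SD, n = 3). Its log2 fold change was -4.31 in set 3 (SE 0.20; edgeR adjusted p = 5.76e-16) and -1.58 in set 2 (SE 0.16; edgeR adjusted p = 1.82e-09). BCL2L2, which encodes the anti-apoptotic Bcl-w, followed the pattern of MCL1 in being highest in set 2, at 29.6 ± 1.10 CPM in set 3, 66.5 ± 3.48 in set 2 and 36.0 ± 2.25 in puro. Set 3 was lower than set 2 by 1.17 for BCL2L2 (SE 0.075; edgeR adjusted p = 3.46e-13).

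Partners of the members and genes of their turnover numbered 24, of which 5 were higher and 8 lower in set 3 against puro, and 6 were higher and 8 lower in set 2 against puro, against 28.0% and 27.6% of all genes in set 3 and 30.0% and 29.9% in set 2. DYNLL1 and DYNLL2 encode the dynein light chains, of which DYNLL2 is known to hold BMF at the cytoskeleton. DYNLL2 was at 116 ± 12.0 CPM in set 3, 120 ± 6.89 in set 2 and 125 ± 8.49 in puro, and passed no test in the 3 comparisons. DYNLL1 was lower in set 2 than in puro by 0.22 (SE 0.067; edgeR adjusted p = 0.0061), a call that was lost on FPKM, where the value was -0.12 (limma adjusted p = 0.104 with a pseudocount of 1). BOK binds inositol trisphosphate receptors, and ITPR1 was lower than puro in both sets, at 23.0 ± 1.53 CPM in set 3, 30.0 ± 1.98 in set 2 and 38.2 ± 2.90 in puro. The log2 fold change of ITPR1 was -0.73 in set 3 (SE 0.085; edgeR adjusted p = 3.65e-08) and -0.35 in set 2 (SE 0.084; edgeR adjusted p = 0.000848).

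ITPR2 was lower by 0.62 in set 3 (SE 0.080; edgeR adjusted p = 2.32e-07) and by 0.27 in set 2 (SE 0.080; edgeR adjusted p = 0.00515), and the set 2 call was lost without puro replicate 3 (adjusted p = 0.0517). ITPR3 was lower by 0.28 in set 3 (SE 0.069; edgeR adjusted p = 0.000908). HUWE1 and FBXW7 belong to ubiquitin ligases that act on MCL1. HUWE1 was higher by 0.44 in set 3 (SE 0.065; edgeR adjusted p = 2.04e-06) and by 0.23 in set 2 (SE 0.065; edgeR adjusted p = 0.00354). FBXW7 averaged 17.6 ± 0.69 CPM in set 3, 9.52 ± 0.22 in set 2 and 9.31 ± 0.74 in puro, a set difference of 0.89 (SE 0.10; edgeR adjusted p = 2.92e-08). BTRC, a further ligase subunit, was higher in set 2 by 0.55 (SE 0.088; edgeR adjusted p = 4.81e-06), and its smaller value in set 3, 0.22, lost its call without puro replicate 1 and without shIGF2BP2 replicate 2 or 3. Other genes of the list of partners and turnover were lower. MARCHF5 was called lower than puro by 0.67 (SE 0.078) in set 3 and was not called in set 2. USP9X was called lower by 0.26 (SE 0.072) in set 3 and by 0.67 (SE 0.072) in set 2.

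Downstream of the mitochondria, 13 of 14 genes of the apoptosome and the caspases were tested. In set 3 against puro 1 was higher and 7 lower, with a median of -0.21, and in set 2 against puro 1 was higher and 4 lower, with a median of -0.05. Of all genes, 28.0% were higher and 27.6% lower in set 3, while 30.0% were higher and 29.9% lower in set 2. CASP9, the initiator caspase of the apoptosome, was lower by 0.39 in set 3 (SE 0.11; edgeR adjusted p = 0.00537) and by 0.38 in set 2 (SE 0.11; edgeR adjusted p = 0.0056). PARP1 and DFFA, substrates of executioner caspases, were low in set 2: PARP1 averaged 297 ± 6.83 CPM in set 3, 137 ± 3.18 in set 2 and 291 ± 3.83 in puro. The set difference was 1.11 for PARP1 (SE 0.060; edgeR adjusted p = 1.06e-14) and 0.85 for DFFA (SE 0.067; edgeR adjusted p = 1.95e-11).

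Among inhibitor of apoptosis genes, 5 of 6 were tested. Of these, 0 were higher and 4 lower in set 3 against puro, and 1 was higher and 1 lower in set 2 against puro. The shares of all genes were 28.0% higher and 27.6% lower in set 3, and 30.0% higher and 29.9% lower in set 2. Only 2 were called in set 3 against puro without shIGF2BP2 replicate 2, where 6482 of all genes were called in place of 7425. BIRC3 averaged 79.8 ± 13.3 CPM in set 3, 131 ± 8.06 in set 2 and 100 ± 7.85 in puro, with a set difference of -0.72 (SE 0.088; edgeR adjusted p = 7.11e-08). BIRC5, which encodes survivin, was lower than puro in set 2 by 0.37 (SE 0.061; edgeR adjusted p = 7.88e-06). Its log2 value of -0.18 in set 3 lost its call without puro replicate 1 or without shIGF2BP2 replicate 2. BIRC2 differed by -0.36 between set 3 and set 2 (SE 0.078; edgeR adjusted p = 0.000273).

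The death receptor arm, which joins the family through BID, held 13 tested genes of 14. In set 3 against puro 1 was higher and 7 lower, with a median of -0.28, whereas in set 2 against puro 5 were higher and 3 lower, with a median of 0.14. Over all genes, 28.0% were higher and 27.6% lower in set 3, and 30.0% were higher and 29.9% lower in set 2. Between the sets, 2 were higher and 8 lower in set 3, with a median of -0.40 where all genes had -0.02 and where 29.8% of all genes were higher and 30.8% lower. TNFSF10, the ligand TRAIL, was at 150 ± 12.9 CPM in set 3, 231 ± 5.11 in set 2 and 361 ± 20.5 in puro. The log2 fold change of TNFSF10 was -1.27 in set 3 (SE 0.069; edgeR adjusted p = 1.17e-14) and -0.64 in set 2 (SE 0.068; edgeR adjusted p = 5.77e-09). Its receptor TNFRSF10B was lower by 0.68 in set 3 (SE 0.061; edgeR adjusted p = 3.39e-10) and by 0.33 in set 2 (SE 0.061; edgeR adjusted p = 3.69e-05). The decoy receptor TNFRSF10D was higher by 0.78 in set 3 (SE 0.074; edgeR adjusted p = 8.9e-10) and by 0.31 in set 2 (SE 0.074; edgeR adjusted p = 0.000733). Of the list's other TNFRSF10 genes, TNFRSF10A was called in neither set against puro (log2 -0.20 in set 3 and 0.20 in set 2). TNFRSF10C, at 1 to 14 counts per column, was called lower in set 3 by 2.10 (SE 0.75) but not in set 2. FAS was at 23.0 ± 1.42 CPM in set 3, 50.6 ± 0.75 in set 2 and 30.5 ± 2.36 in puro, so that set 3 was below puro and set 2 above it. FAS differed by -1.14 between set 3 and set 2 (SE 0.080; edgeR adjusted p = 1.94e-12), and CASP10, an initiator caspase of this arm, by -0.93 (SE 0.12; edgeR adjusted p = 1.08e-07).

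**Figure D4:**
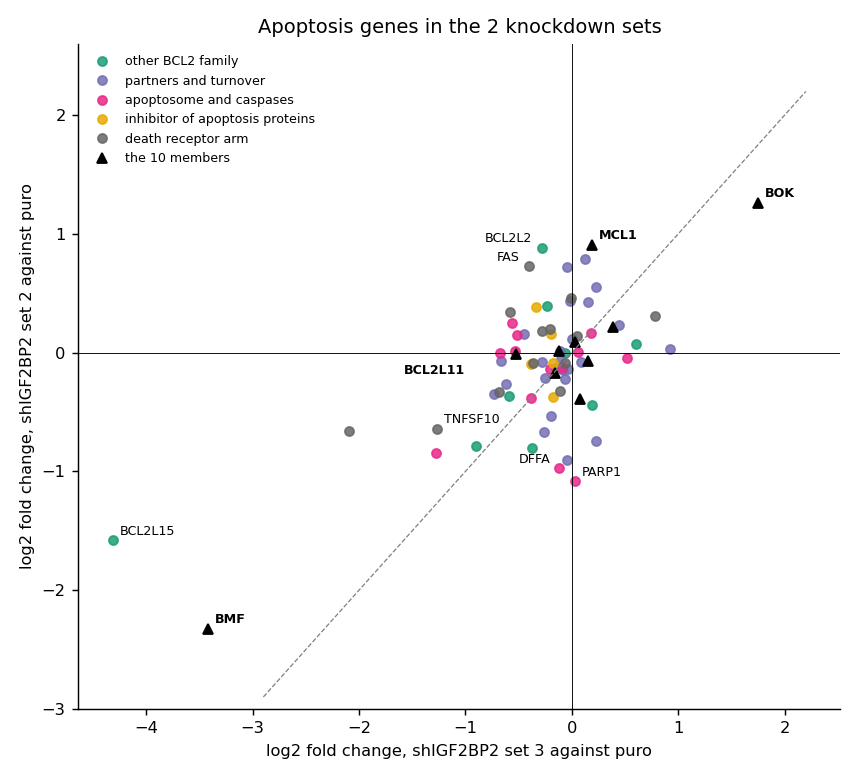
Log2 fold change against puro in set 3 (horizontal axis) and in set 2 (vertical axis) for the tested genes of the 5 apoptosis lists (circles) and the 10 members (triangles), with the line of equal values dashed. Both axes share the 3 puro columns, so the spread along the line is not a result; BCL2L2, FAS and MCL1 lie above it, and PARP1 and DFFA below it.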

How the data were processed

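RNA of 786-O cells was sequenced in 3 puro and 3 shIGF2BP2 samples. The deposited counts are whole reads per gene, and the deposited FPKM values are the same counts scaled by gene length and column total, which gave 1 length per member in every column. Reads were trimmed with fastp 0.23.2, aligned with STAR 2.7.10a to hg38 and counted with featureCounts, and DESeq2 was named too, per the submitters' processing notes. Which gene annotation was used, whether counting was stranded, and how multimapping reads were handled: not given in the sources used here.

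All 9 columns entered 1 edgeR 4.0.16 quasi-likelihood fit (R 4.3.3, filterByExpr, TMM factors), with Benjamini-Hochberg adjustment over all 13346 genes and an FDR of 0.05. Standard errors were derived from the F statistic. Columns with the same last number were summed for a fit of 6 samples. No 2 columns were duplicates within counting noise. Levels between genes use FPKM. FPKM carries no TMM factor (0.958 to 1.057 here). The fits were tested on simulated data.

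Named were all 10 members, IGF2BP2, up to 2 genes per list higher and 2 lower in both sets and 2 whose sets differed most, partners of BMF and BOK, and the 3 genes nearest to BMF and BOK. Some genes that this rule names are left out of the text, though counts over the lists include them. TNFRSF10A, TNFRSF10C, PMAIP1, BBC3, BIK, BCL2A1, MARCHF5 and USP9X are given beyond this rule. The members and lists were chosen with earlier results of these data known. Alternatives were RLE and upper-quartile factors, no filter, DESeq2 1.42.0, limma-voom and limma 3.58.1 on log2(FPKM + 1) and log2(FPKM + 0.1), a replicate block, an FDR of 0.01, separate fits, the other reading of the column names, and each sample left out.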

Additional observations from a re-analysis of the deposited data

Results flagged for a closer look

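The sets differed by the edgeR test of the difference itself for 7 of the 10 members, and for 8097 of all 13346 genes. The count of members is thus near the background. On the log2 scale, set 3 minus set 2 was -0.72 for MCL1, -1.10 for BMF and -0.52 for BCL2L11, all lower in set 3. It was 0.48 for BOK, 0.46 for BCL2, 0.22 for BID and 0.17 for BCL2L1, all higher in set 3. MCL1, BMF, BOK and BCL2L11 kept these calls under all 15 alternatives that gave an adjusted p for the set difference, with ranges of -0.85 to -0.65 for MCL1, -1.27 to -0.71 for BMF, 0.35 to 0.52 for BOK and -0.62 to -0.45 for BCL2L11.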

How the results depend on the processing

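Of the counts of members called, 62 stayed within 1.5 times their value and 2 did not. In set 3 against set 2 the count ranged between 4 and 7 over the samples left out, against 7 with all. Over all genes the count ranged between 6676 and 8185, against 8097. With the number before the last read as the sample number, only 2 members (BMF and BOK, on which the choice rested) were called in the summed comparison, against 6, and 1285 genes in all against 7842; this reading leaves 2 knockdown samples. Leaving out samples gave 4 to 6 members called in set 3 against puro, 4 to 6 in set 2 against puro and 5 to 6 when summed. Over all genes, 6482 to 7506, 7134 to 7927 and 6889 to 8028 were called in these comparisons.

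The set 3 minus set 2 value of BAX, 0.01 and not called, changed sign with upper-quartile factors (-0.023), on FPKM with a pseudocount of 1 (-0.11) or 0.1 (-0.12), and without shIGF2BP2 replicate 2 (-0.053) or replicate 3 (-0.026). Over the samples left out it ranged between -0.053 and 0.11. FPKM moved the median of all genes in this comparison by -0.12 at either pseudocount. On FPKM, BAK1 and BAD were called lower in set 3 than in set 2, and BCL2L1, BCL2 and BID lost their calls. The calls of BCL2 and BAX in set 2 against puro were lost in 9 alternatives each. Of the members' log2 values, 553 kept their side of the threshold (between the sets) or moved by less than the spread between replicates (against puro), and 25 against puro moved by more. Between the sets 13 values lost a call and 4 gained one.

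Same-numbered columns correlated at -0.10 to 0.04 in their deviations from the set means, and not every column correlated best with its own number. No same-numbered pair reached 0.1, so the numbers were not taken to pair the samples. With the replicate block, 5 members (and 6942 genes in all) were called in set 3 against puro, and 4 (7538 in all) in set 2 against puro. In set 3 against set 2, 6 were called (7636 in all), and 6 when summed (7302 in all). BCL2 rested on few reads, which limits its precision.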
